A study of Homo sapiens with 6 samples.

Results

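The 10 genes described here are 10 of the 58174 genes listed in each sample and were chosen by gene symbol: the ligand genes TGFB1, TGFB2, TGFB3 and INHBA, the receptor genes TGFBR1 and TGFBR2, the signal transducer genes SMAD2 and SMAD3, the inhibitor gene SMAD7 and the secreted target TGFBI. All 10 were found, and 9 passed the filter on low values, TGFB3 being the exception. RNA-seq was performed on T24, an established human bladder cancer cell line. The cells stably carried a lentiviral pLKO.1 construct, selected with puromycin, that expressed either a hairpin RNA against UBC9 (shRNA-UBC9, 3 samples) or a scrambled hairpin (shRNA-NC, 3 samples). UBC9 is the only conjugating enzyme of sumoylation, the attachment of small ubiquitin-related modifiers to proteins. A single hairpin was used against UBC9, so the loss of UBC9 and other effects of that hairpin cannot be told apart. Whether the 3 samples of a group came from separate cultures is not stated, and p-values then measure only the spread between these samples, which may be technical.

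TGF-beta ligands are secreted in a latent form, are released outside the cell, and bind the type II receptor TGFBR2. TGFBR2 recruits and phosphorylates the type I receptor TGFBR1, which phosphorylates SMAD2 and SMAD3, and these enter the nucleus with SMAD4 and bind DNA. Activin A, a dimer of the INHBA product, signals to the same SMAD2 and SMAD3 through its own receptors, and SMAD7 is an inhibitor that is itself a target of the pathway. In epithelial tumours, the bladder included, the pathway is known both for arresting growth and for promoting mesenchymal features.

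In shRNA-UBC9 cells the ligand gene INHBA and the receptor gene TGFBR2 were higher, and TGFB1 was slightly higher. The ligand gene TGFB2 and the receptor gene TGFBR1 were lower, and none of the SMAD genes among the 10 passed the test. Expression is given in RPKM, reads per kilobase of gene divided by the mapped reads of the sample. Groups were compared with limma on log2(RPKM + 0.1) over 12428 genes, p-values were adjusted over all of them by the Benjamini-Hochberg method, and a gene passed with an adjusted p below 0.05. Fold changes are on that scale, with shRNA-UBC9 against shRNA-NC, and understate the change of low genes. Of the 9 genes tested, 3 passed as higher, against 18.8% of all genes tested, and 2 passed as lower, against 18.0%. With a log2 fold change above 1 as well, INHBA was the 1 member, against 5.20% of all genes. With one below -1, TGFB2 and TGFBR1 were the 2 members, against 2.70%. Without regard to a test, every shRNA-UBC9 sample lay above every shRNA-NC sample for 3 members, against 25.7% of all genes, and below for 3, against 25.4%. Over so few genes these counts are a description, and they are not read as a property of the family. The median log2 fold change of the 9 was -0.15, and that of all 12428 genes was 0.005.

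Before these values are read, the depth and the cells were checked. The steps between RPKM values gave 28219032 to 36058872 mapped reads per sample, and the 2 groups overlapped in depth. The epithelial markers KRT7, KRT8, KRT18 and KRT19 were above 1 RPKM in every sample, while CDH1, which encodes E-cadherin, was at or near 0 and all 4 uroplakin genes of the umbrella cells of the urothelium were below 1 RPKM. The 6 epithelial markers summed to between 938 and 1108 RPKM in shRNA-NC and to between 426 and 564 RPKM in shRNA-UBC9. The 4 keratin genes carried that sum and passed the test as lower, while EPCAM had means of 0.658 and 1.505 RPKM with overlapping groups. The part of the keratin difference in the results was not tested. The 5 leukocyte markers summed to at most 1.74 RPKM and the 5 fibroblast markers to at most 1.33 RPKM in any sample. Within the latter, COL1A1 passed as higher (means of 0.377 and 0.818 RPKM) and PDGFRB as lower (0.764 and 0.202 RPKM). PDGFRB was kept by the filter only through shRNA-NC, the group where it is high. COL1A1 reached the 0.5 RPKM of the filter in every shRNA-UBC9 sample but in shRNA-NC only in replicate 2. The 3 endothelial markers summed to between 2.64 and 3.26 RPKM in shRNA-NC and to between 0.316 and 1.07 RPKM in shRNA-UBC9, with PECAM1 and VWF below 1 RPKM in every sample and the sum carried by CDH5. Within their groups, shRNA-NC replicate 2 and shRNA-UBC9 replicate 1 were each the highest or the lowest of the 3 samples for all 10 genes, and values without each are given where they change a result. RNA of bulk cells was measured, so fewer cells that express a gene and less RNA of it per cell cannot be told apart.

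The 3 ligand genes that passed the test each have a single start in the RefSeq table used here, and the 250 bases before it are shown as the stretch next to that start. Values are per gene, so which transcript start the change came from was not measured. All 10 genes were found in that table, TGFBR1 with 8 starts and TGFBR2 with 2, which is why the receptor genes are not shown. The windows are on GRCh38.p14 and read 5′ to 3′ on the strand of the gene. That of TGFB1 is at chr19:41353923-41354172 on the minus strand, that of TGFB2 at chr1:218345086-218345335 on the plus strand and that of INHBA at chr7:41703091-41703340 on the minus strand. The INHBA window lies within the span that GENCODE gives the gene, since other annotated INHBA transcripts start further upstream, at up to base 41705834. Capitals mark matches to the motifs named below.
TGFB1: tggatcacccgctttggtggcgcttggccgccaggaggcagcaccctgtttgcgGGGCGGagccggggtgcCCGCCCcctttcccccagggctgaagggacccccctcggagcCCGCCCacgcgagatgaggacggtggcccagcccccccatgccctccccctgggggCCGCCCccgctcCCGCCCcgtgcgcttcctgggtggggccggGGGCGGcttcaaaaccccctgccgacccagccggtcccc
TGFB2: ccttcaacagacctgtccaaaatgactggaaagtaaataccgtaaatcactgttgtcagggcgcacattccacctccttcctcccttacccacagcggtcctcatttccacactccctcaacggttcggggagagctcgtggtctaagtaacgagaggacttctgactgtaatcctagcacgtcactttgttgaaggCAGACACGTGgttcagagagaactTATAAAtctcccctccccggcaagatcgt
INHBA: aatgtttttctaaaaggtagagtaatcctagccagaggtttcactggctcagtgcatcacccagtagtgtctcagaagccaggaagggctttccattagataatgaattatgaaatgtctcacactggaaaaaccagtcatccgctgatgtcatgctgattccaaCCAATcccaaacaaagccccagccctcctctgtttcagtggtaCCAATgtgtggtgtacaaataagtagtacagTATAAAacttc
Searched on both strands were AP-1 (TGANTCA), the cAMP response element (TGACGTCA), the GC box (GGGCGG), the TATA box (TATAAA), the CCAAT box (CCAAT), a SMAD element (CAGACA), the E box (CACGTG) and NF-kappaB. The TGFB1 window was 76.8% G and C, against a median of 58.0% over all 35116 windows of this length, with 21 CpG and 6 GC boxes, a motif held by 42.6% of all windows. The TGFB2 window was 50.4% G and C with 11 CpG. It held a TATA box 29 to 24 bases before the start (10.7% of all windows hold one) and a SMAD element at 53 to 48 bases (13.6%), which overlapped an E box at 49 to 44 bases (6.34%). The INHBA window was 42.8% G and C with 1 CpG, and held a TATA box at 11 to 6 bases and CCAAT boxes at 85 to 81 and 42 to 38 bases (32.0% of all windows). The AP-1 motif (6.57% of all windows), the cAMP response element (1.65%) and NF-kappaB (5.21%) had no match in these 3 windows. The ligand genes that rose, TGFB1 and INHBA, thus had windows that differed most in base composition, and the one gene that fell, TGFB2, lay between them.

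INHBA encodes the beta A subunit of activin A, and of inhibin A together with the alpha subunit. It had the largest change of the 9 genes. Its expression was 5.57, 10.99 and 6.56 RPKM in shRNA-NC and 164, 60.9 and 64.0 RPKM in shRNA-UBC9. All 3 shRNA-UBC9 samples lay above all 3 shRNA-NC samples, and shRNA-UBC9 replicate 1 stood well above the other two. The means were 7.71 ± 2.89 RPKM and 96.4 ± 58.9 RPKM (SD, n = 3 each). The log2 fold change was 3.53 ± 0.39 (SE, 95% interval 2.64 to 4.42), an 11.5-fold rise (6.22 to 21.4), with an adjusted p of 0.000454. By size of increase INHBA ranked 70 of 12428. Without shRNA-UBC9 replicate 1, as without any other single sample, INHBA stayed past the test, with log2 fold changes of 3.06 to 3.81. These RPKM values rest on 1380 to 49199 reads over a counted length of 8302 bases. The antisense gene INHBA-AS1 shares 248 exonic bases with INHBA, which is 2.99% of the exons of INHBA, and stood between 0.0267 and 0.148 RPKM. Since the strand setting is not given in the sources used here, reads in those bases could belong to either gene.

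TGFB1, the most widely expressed TGF-beta ligand, stood at 42.9, 32.1 and 40.4 RPKM in shRNA-NC and at 46.6, 49.0 and 51.1 RPKM in shRNA-UBC9. The groups did not overlap, but shRNA-NC replicate 1 and shRNA-UBC9 replicate 1 lay close together, and shRNA-NC replicate 2 was the low sample. The means were 38.5 ± 5.65 and 48.9 ± 2.22 RPKM (SD, n = 3 each), a 1.28-fold rise (1.06 to 1.54) with an adjusted p of 0.0439. The call was lost in 8 of 16 alternatives. Without shRNA-NC replicate 2 the log2 fold change went from 0.355 to 0.23 (adjusted p 0.0924), and the call was also lost without shRNA-NC replicate 3 (adjusted p 0.0798) and without shRNA-UBC9 replicate 2 (0.103) or 3 (0.105). HNRNPUL1, on the opposite strand, shares 215 exonic bases with TGFB1, which is 6.59% of the exons of TGFB1. It stood at 53.9 to 61.8 RPKM in shRNA-NC and 23.3 to 33.0 RPKM in shRNA-UBC9, the reverse order of TGFB1.

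TGFB2 encodes a ligand with low affinity for TGFBR2 alone. It was at 4.0, 8.55 and 4.03 RPKM in shRNA-NC and at 3.43, 1.01 and 1.69 RPKM in shRNA-UBC9. All 3 shRNA-UBC9 samples lay below all 3 shRNA-NC samples, but shRNA-UBC9 replicate 1 was near shRNA-NC replicates 1 and 3, and shRNA-NC replicate 2 was the high sample. The means were 5.53 ± 2.62 and 2.04 ± 1.25 RPKM (SD, n = 3 each), and the log2 fold change was -1.46 ± 0.43 (SE, 95% interval -2.44 to -0.48), to 0.363 of the control level (0.184 to 0.716), with an adjusted p of 0.029. By size of decrease it ranked 116 of 12428. The call was lost without shRNA-NC replicate 2 (log2 fold change -1.11, adjusted p 0.0881), without shRNA-UBC9 replicate 2 (-1.07, 0.0746) and without shRNA-UBC9 replicate 3 (-1.41, 0.0567). Reads were 183 to 1525 per sample. TGFB2-OT1, on the same strand, shares 1371 exonic bases with TGFB2, which is 22.7% of the exons of TGFB2. TGFB2-AS1, on the opposite strand, shares 701 (11.6%). TGFB2-OT1 was at 0 in every sample and TGFB2-AS1 at no more than 0.106 RPKM. How reads in shared bases were assigned is not given in the sources used here, so these values do not settle whether TGFB2-OT1 was expressed.

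TGFB3, the third TGF-beta ligand gene, had the lowest mean of the 10 genes in both groups. It stood at 0.402, 0.317 and 0.355 RPKM in shRNA-NC and at 0.322, 0.474 and 0.353 RPKM in shRNA-UBC9, and the groups overlapped. Each value rests on 49 to 82 reads. No sample reached 0.5 RPKM, so the gene was not among the 12428 tested, and in the fit with no filter its log2 fold change was 0.07 with an adjusted p of 0.86. Because RPKM is per length, the 3 TGF-beta ligand genes can be set side by side within a sample. TGFB1 made up 86.4 ± 6.98% of their summed RPKM in shRNA-NC and 95.3 ± 2.39% in shRNA-UBC9. The share of TGFB2 was 8.45, 20.9 and 8.998% in shRNA-NC and 6.81, 1.997 and 3.17% in shRNA-UBC9, and the groups did not overlap. Without shRNA-NC replicate 2 the difference in share went from 8.84 to 4.81 percentage points for TGFB1 and from -8.78 to -4.73 for TGFB2. For both shares the two-sided exact permutation test gave p = 0.1, the smallest that 3 samples against 3 allow, and 0.2 after adjustment over the 6 ratios and shares compared.

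**Figure D1:**
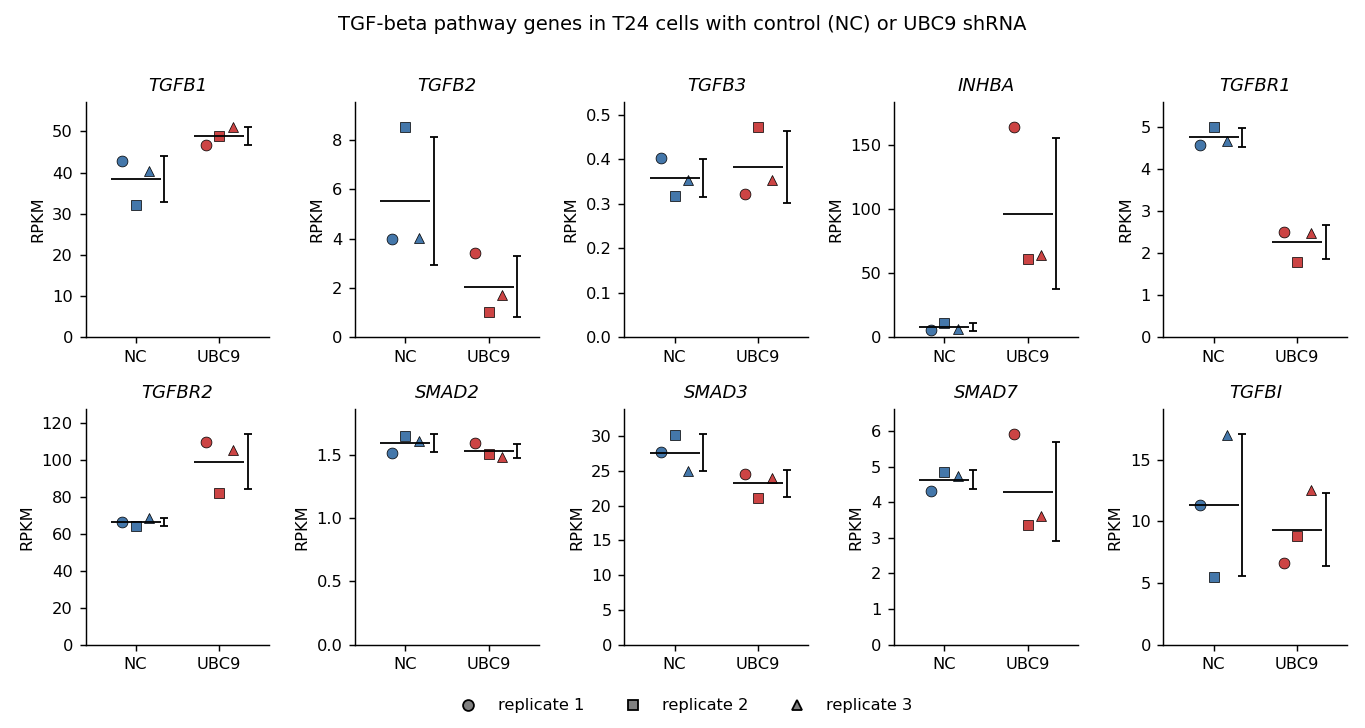
Expression of the 10 genes in RPKM (vertical axes, each from 0 and on its own scale) in the 3 shRNA-NC (blue) and 3 shRNA-UBC9 (red) samples. Each symbol is 1 sample, the horizontal line is the mean and the bar beside it is the SD. INHBA is at 5.57 to 10.99 RPKM in shRNA-NC and at 60.9 to 164 RPKM in shRNA-UBC9, and the groups are also apart for TGFB1, TGFB2, TGFBR1, TGFBR2 and SMAD3.

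The 2 receptor genes moved in opposite directions. TGFBR2, the constitutively active kinase that binds the ligand, had the highest mean of the 10 genes in both groups. Its expression was 66.0, 64.3 and 68.5 RPKM in shRNA-NC and 110, 82.0 and 105 RPKM in shRNA-UBC9. The shRNA-NC samples were close together, and all 3 shRNA-UBC9 samples lay above them, replicate 2 being the lowest of the 3. The means were 66.2 ± 2.11 and 98.9 ± 14.8 RPKM (SD, n = 3 each), a 1.48-fold rise (1.23 to 1.78; log2 fold change 0.57 ± 0.12, SE) at an adjusted p of 0.00682. It was past the test in 16 of 16 alternatives.

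TGFBR1 encodes the type I receptor, also called ALK5, the kinase that phosphorylates SMAD2 and SMAD3. It fell from 4.57, 5.003 and 4.68 RPKM in shRNA-NC to 2.504, 1.79 and 2.48 RPKM in shRNA-UBC9. The groups were well apart, with shRNA-UBC9 replicate 2 the lowest sample. The means were 4.75 ± 0.23 and 2.26 ± 0.41 RPKM (SD, n = 3 each), the log2 fold change was -1.06 ± 0.14 (SE, 95% interval -1.38 to -0.73), and expression was 0.481 of the control level (0.385 to 0.601), with an adjusted p of 0.000996. By size of decrease it ranked 304 of 12428, and it was past the test in 16 of 16 alternatives, with log2 fold changes of -1.14 to -0.83. Its log2 fold change was near the threshold of -1. Without shRNA-UBC9 replicate 2 it was -0.90, TGFB2 lost its adjusted p, and the members that met both thresholds went from 3 to 1.

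The ratio of TGFBR2 to TGFBR1 varied little within a group. It was 14.4, 12.8 and 14.6 in shRNA-NC and 43.8, 45.9 and 42.4 in shRNA-UBC9, with means of 14.0 ± 0.987 and 44.01 ± 1.79 (SD, n = 3 each). The ratio was 3.15 times as high in shRNA-UBC9, and each shRNA-UBC9 sample was far above each shRNA-NC sample. The two-sided exact permutation test gave p = 0.1, the smallest that 3 against 3 allow, and 0.2 adjusted over the 6 ratios. In reads, without division by length, the mean ratio was 9.61 and 30.2.

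None of the 3 SMAD genes among the 10 passed the test. SMAD3, the DNA-binding transducer, was at 27.7, 30.2 and 24.9 RPKM in shRNA-NC and at 24.6, 21.0 and 24 RPKM in shRNA-UBC9. The groups did not overlap, yet the lowest shRNA-NC sample and the highest shRNA-UBC9 sample were almost level. The log2 fold change was -0.25 ± 0.10 (SE, 95% interval -0.49 to -0.01), with an unadjusted p of 0.0423 and an adjusted p of 0.0939 in limma, and it was past the test in 0 of 16 alternatives. SMAD2 was at 1.52, 1.66 and 1.61 RPKM in shRNA-NC and at 1.596, 1.51 and 1.49 RPKM in shRNA-UBC9, and the groups overlapped. Its log2 fold change was -0.05 (95% interval -0.32 to 0.21), with an adjusted p of 0.744. The level of SMAD2 was divided by a counted length of 36366 bases, the longest of the 10 genes, against 9113 bases for SMAD3. Its RPKM, and so its level against other genes, depends on that length. SMAD3 was 17.3 ± 1.604 times SMAD2 in RPKM in shRNA-NC and 15.1 ± 1.15 times in shRNA-UBC9 (SD, n = 3 each), and in reads 4.34 and 3.79 times, with overlapping groups and p = 0.2 in the exact permutation test.

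SMAD7, the inhibitory SMAD that brings ubiquitin ligases to the type I receptor, was at 4.32, 4.84 and 4.73 RPKM in shRNA-NC and at 5.90, 3.37 and 3.62 RPKM in shRNA-UBC9. The shRNA-NC samples lay together, and the shRNA-UBC9 samples lay on both sides of them, replicate 1 above and replicates 2 and 3 below. The log2 fold change was -0.15 ± 0.20 (SE), with an adjusted p of 0.578. Without shRNA-UBC9 replicate 1 it was -0.40 with an adjusted p of 0.0225, so that sample decided the call. The ratio of SMAD7 to SMAD2 and SMAD3 together was 0.159 ± 0.0164 in shRNA-NC and 0.172 ± 0.0463 in shRNA-UBC9 (SD, n = 3 each; p = 0.9 in the exact permutation test).

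TGFBI, which encodes a secreted matrix protein first found as induced by TGF-beta, varied within groups more than between them. It was at 11.3, 5.50 and 17.0 RPKM in shRNA-NC and at 6.63, 8.81 and 12.5 RPKM in shRNA-UBC9. The samples of the 2 groups were interleaved. The log2 fold change was -0.18 (95% interval -1.06 to 0.70), with an adjusted p of 0.743, and in folds the interval ran from 0.48 to 1.62 of the control level.

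**Figure D2:**
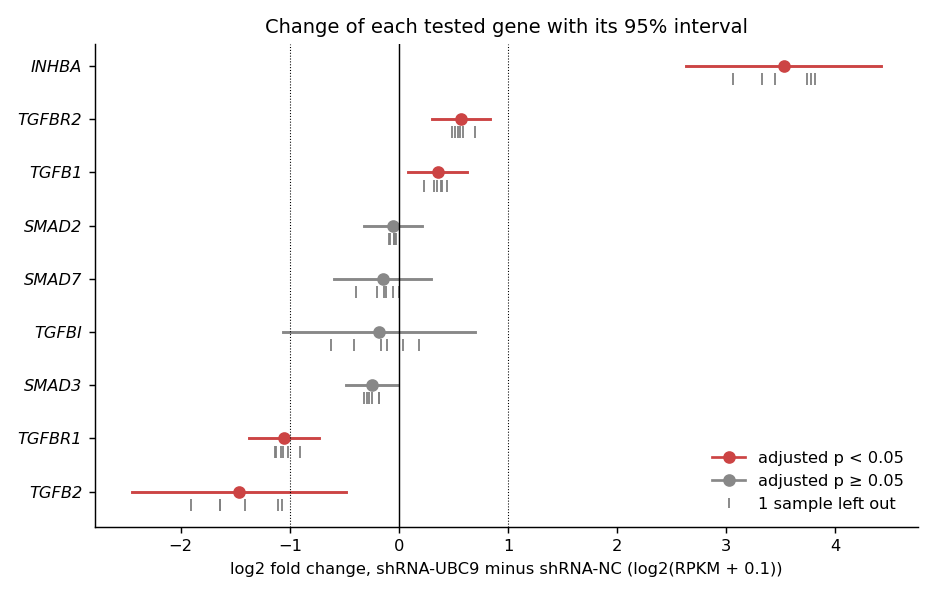
Log2 fold change of shRNA-UBC9 against shRNA-NC on log2(RPKM + 0.1) (horizontal axis) for the 9 genes tested, with 95% intervals. Red marks an adjusted p below 0.05, grey ticks under each gene give the value without each of the 6 samples in turn, and dotted lines stand at -1 and 1. INHBA is alone on the right at 3.53, TGFBR1 and TGFB2 are at -1.06 and -1.46, and the ticks of TGFBI fall on both sides of 0.

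Set in order of RPKM, TGFBR2, TGFB1 and SMAD3 were the 3 highest genes in shRNA-NC, with means of 66.2, 38.5 and 27.6 RPKM and no overlap between neighbours. TGFBI, INHBA, TGFB2, TGFBR1 and SMAD7 followed, with means of 11.3 to 4.63 RPKM. Neighbours in that stretch overlapped in range, so the order of neighbours is not settled by 3 samples. The ranges of TGFBI and INHBA did lie wholly above those of TGFBR1 and SMAD7. SMAD2, whose RPKM depends on its long counted length, and TGFB3 were lowest. In shRNA-UBC9, INHBA was second, and its range overlapped that of TGFBR2. TGFB1, SMAD3, TGFBI and SMAD7 came next without overlap of neighbours. TGFB2, at a mean of 2.04 RPKM, overlapped in range with both TGFBR1 (2.26 RPKM) and SMAD2 (1.53 RPKM), which did not overlap each other. At 1.01 to 3.43 RPKM, TGFB2 also reached into the range of SMAD7, 3.37 to 5.90 RPKM. The ligand gene with the highest RPKM was thus TGFB1 in shRNA-NC and INHBA in shRNA-UBC9.

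**Figure D3:**
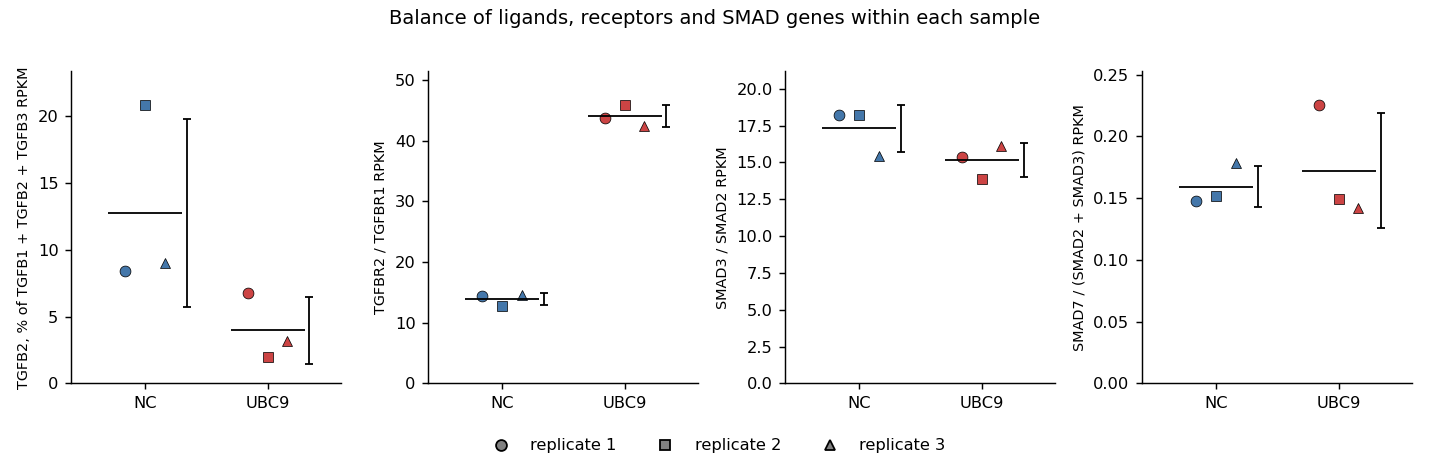
Balance of genes within each sample, from RPKM: TGFB2 as a percent of the 3 TGF-beta ligand genes, TGFBR2 over TGFBR1, SMAD3 over SMAD2, and SMAD7 over the sum of SMAD2 and SMAD3. Each symbol is 1 sample (blue shRNA-NC, red shRNA-UBC9), lines are means and bars are SDs of 3 samples, and axes start at 0. TGFBR2 over TGFBR1 is at 12.8 to 14.6 in shRNA-NC and 42.4 to 45.9 in shRNA-UBC9, and the 2 SMAD ratios overlap between groups.

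The 3 genes whose profile over the 6 samples was most like that of INHBA were GDNF, AC003092.1 and EGR1. Likeness was the root-mean-square distance between log2(RPKM + 0.1) profiles, each centred on its own mean, and was 0.20, 0.28 and 0.31. EGR1, an immediate early transcription factor, was at 1.10, 2.27 and 1.02 RPKM in shRNA-NC and at 51.3, 17.8 and 15.9 RPKM in shRNA-UBC9. As for INHBA, shRNA-UBC9 replicate 1 was the highest sample and shRNA-NC replicate 2 the highest control. EGR1 was picked for its likeness over these same 6 samples, so this shared order is not a separate observation. GDNF, which encodes a distant member of the TGF-beta superfamily, was at 0.00784 to 0.0811 RPKM in shRNA-NC and at 2.09, 1.04 and 0.863 RPKM in shRNA-UBC9. The log2 fold change of GDNF, 3.31, depends on the pseudocount and went to 1.13 with a pseudocount of 1, and the gene was kept by the filter only through shRNA-UBC9. Every shRNA-NC value of GDNF lay below the pseudocount of 0.1, so its likeness to INHBA depends on the pseudocount too. Likeness at other pseudocounts was not tested. AC003092.1 was at 1.23 to 1.74 RPKM in shRNA-NC and at 31.7, 17.5 and 12.1 RPKM in shRNA-UBC9.

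The counts in the 5 lists that follow, written from general knowledge with earlier results of these data known, stand beside 18.8% higher and 18.0% lower among all genes tested, and their medians beside 0.005. Among 14 other genes of activins, inhibins, follistatins and allied ligands, 6 were tested, of which 2 rose, 1 fell and 3 did not pass, with a median log2 fold change of 0.15. INHBB, which encodes the other main activin subunit, was lower where INHBA was higher. It was at 0.910, 3.46 and 0.775 RPKM in shRNA-NC and at 0.190, 0.186 and 0.0995 RPKM in shRNA-UBC9, with no overlap. Its log2 fold change was -2.52 ± 0.50 (SE), with an adjusted p of 0.00584. It was kept by the filter only through the group where it is high, so a difference was needed for it to be tested at all. Its value was -1.88 without shRNA-NC replicate 2, the high sample, and -1.095 with a pseudocount of 1. FST, whose product follistatin binds and blocks activin, was at 24.3, 24.9 and 21.8 RPKM in shRNA-NC and at 35.2, 80.8 and 57.2 RPKM in shRNA-UBC9 (log2 fold change 1.21 ± 0.26, SE, adjusted p 0.00774). GDF15, a distant family member known as a stress-induced cytokine, rose by 2.24 on the log2 scale, the mean going from 6.70 ± 0.944 to 32.5 ± 8.45 RPKM (SD, n = 3 each). INHA, the alpha subunit that turns activin into inhibin, was below the filter, at means of 0.0854 and 0.134 RPKM. LEFTY1 and LEFTY2 were listed at 0 in every sample.

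The list of other receptors of the family, which also holds the receptor-associated protein gene TGFBRAP1, gave 2 that rose, 2 that fell and 6 that did not pass among 10 tested of 12, with a median log2 fold change of 0.04. ACVR1 (ALK2), a type I receptor for BMPs and activins, rose from 6.33 ± 0.192 to 9.41 ± 0.290 RPKM. BMPR1A (ALK3), a type I receptor for BMPs, fell from 4.79 ± 0.0821 to 3.22 ± 0.0561 RPKM (SD, n = 3 each), with adjusted p-values of 0.00141 and 0.00181. TGFBRAP1, a cytoplasmic partner of TGFBR1, fell as well, with a log2 fold change of -0.47. BMPR1B rose by 0.97 on the log2 scale at means of 0.462 and 1.03 RPKM, but its groups overlapped, and its call was lost without shRNA-NC replicate 2 (log2 fold change 0.81) or 3 (0.95) and without shRNA-UBC9 replicate 2 (0.83) or 3 (0.77). BMPR1B reached the 0.5 RPKM of the filter in every shRNA-UBC9 sample but in shRNA-NC only in replicate 1. It was thus kept only through the group where it is high, and its call was lost with no filter (adjusted p 0.0952). The activin receptors ACVR1B, ACVR2A and ACVR2B, which were named after their values were seen, did not pass. ACVR1B was at 3.50 ± 0.0875 and 3.76 ± 0.0405 RPKM, with an adjusted p of 0.386. ACVR2A was at 0.799 and 0.995 RPKM and ACVR2B at 0.754 and 0.851 RPKM, on means.

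Of 20 other SMAD genes and SMAD regulators, 19 were tested, of which 5 rose, 5 fell and 9 did not pass, with a median log2 fold change of 0.008. SMURF2, a ubiquitin ligase that acts on the receptors with SMAD7, rose from 24.9 ± 0.258 to 33.2 ± 1.17 RPKM, and SKIL, a corepressor of SMADs, rose from 5.89 ± 0.362 to 7.93 ± 0.574 RPKM (SD, n = 3 each). ZFYVE9 (SARA), which presents SMAD2 and SMAD3 to the receptor, and USP15, a deubiquitinase of the receptor and SMADs, rose by 0.46 and 0.39 on the log2 scale. SMAD6, the inhibitory SMAD of the BMP branch, fell from 0.865 ± 0.438 to 0.315 ± 0.0409 RPKM, and the corepressor TGIF1, the BMP transducer SMAD5 and the coactivator CREBBP fell by 0.50, 0.50 and 0.41 on the log2 scale. SMAD4, the partner shared by all transducing SMADs and named after its value was seen, was at 5.09 ± 0.151 and 4.88 ± 0.290 RPKM, with an adjusted p of 0.616. The number past the test went from 10 to 5 without shRNA-NC replicate 3 or without shRNA-UBC9 replicate 2, and to 6 without shRNA-NC replicate 1. The call of CREBBP held in 1 of the 6 fits that left out a sample, those of ZFYVE9 and USP15 in 3 of 6 each, and that of SMAD6 in 5 of 6, being lost without shRNA-UBC9 replicate 3 (adjusted p 0.0515). SMAD6 was kept by the filter only through its shRNA-NC samples, and its call was lost with no filter (adjusted p 0.0572).

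Of 17 genes of TGF-beta latency and activation, 11 were tested, of which 1 rose, 4 fell and 6 did not pass, with a median log2 fold change of -0.23. THBS1, which encodes thrombospondin-1, an activator of latent TGF-beta, showed the largest fall, by 3.22 on the log2 scale, and stood at 4.62 to 7.04 RPKM in shRNA-UBC9. ITGB8, a subunit of an integrin that releases TGF-beta, was at 2.79, 2.54 and 2.90 RPKM in shRNA-NC and at 1.18, 1.08 and 1.16 RPKM in shRNA-UBC9 (log2 fold change -1.20 ± 0.12, SE, adjusted p 0.000249). FBN1, the fibrillin that anchors latent complexes in the matrix, fell from 22.3 ± 0.501 to 10.8 ± 2.18 RPKM (SD, n = 3 each). LTBP1, which binds the latent ligand, fell by 0.52 on the log2 scale, a call that held in 1 of the 6 fits that left out a sample. FURIN, the protease that cleaves the ligand precursor, had means of 26.9 ± 4.82 and 38.8 ± 3.98 RPKM (SD, n = 3 each) and rose with an adjusted p of 0.0203, which was 0.0551 without shRNA-UBC9 replicate 3.

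Textbook targets of TGF-beta and SMAD3 went both ways. Of 28 genes, 24 were tested, of which 9 rose, 5 fell and 10 did not pass, with a median log2 fold change of 0.12. CDKN1A, the cell cycle inhibitor p21, rose from 9.04 ± 0.395 to 38.5 ± 6.22 RPKM, and JUNB, an AP-1 subunit, from 12.9 ± 1.89 to 41.1 ± 6.06 RPKM. SNAI1, the transcription factor Snail, rose from 1.43 ± 0.412 to 3.64 ± 0.439 RPKM (SD, n = 3 each). Those that fell included the smooth muscle genes ACTA2 and TAGLN, at log2 fold changes of -1.51 and -0.56. ACTA2 was at 1.43, 1.99 and 1.57 RPKM in shRNA-NC and at 0.904, 0.382 and 0.381 RPKM in shRNA-UBC9, while TAGLN was at means of 109 and 73.4 RPKM. ACTA2 reached the 0.5 RPKM of the filter in every shRNA-NC sample but in shRNA-UBC9 only in replicate 1. It was thus kept only through the group where it is high, and with no filter its adjusted p was 0.0229. CDKN2B, the cell cycle inhibitor p15, fell by 0.71 on the log2 scale and CTGF, a matricellular protein, by 0.62, with calls that held in 2 and 3 of the 6 fits that left out a sample. Of the 2 cell cycle inhibitor genes in the list, CDKN1A was thus higher and CDKN2B lower in shRNA-UBC9. SKIL, TGIF1, PMEPA1 and BAMBI also stand in the list of SMAD regulators, and LTBP2, LTBP3 and ITGB6 in that of latency and activation.

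**Figure D4:**
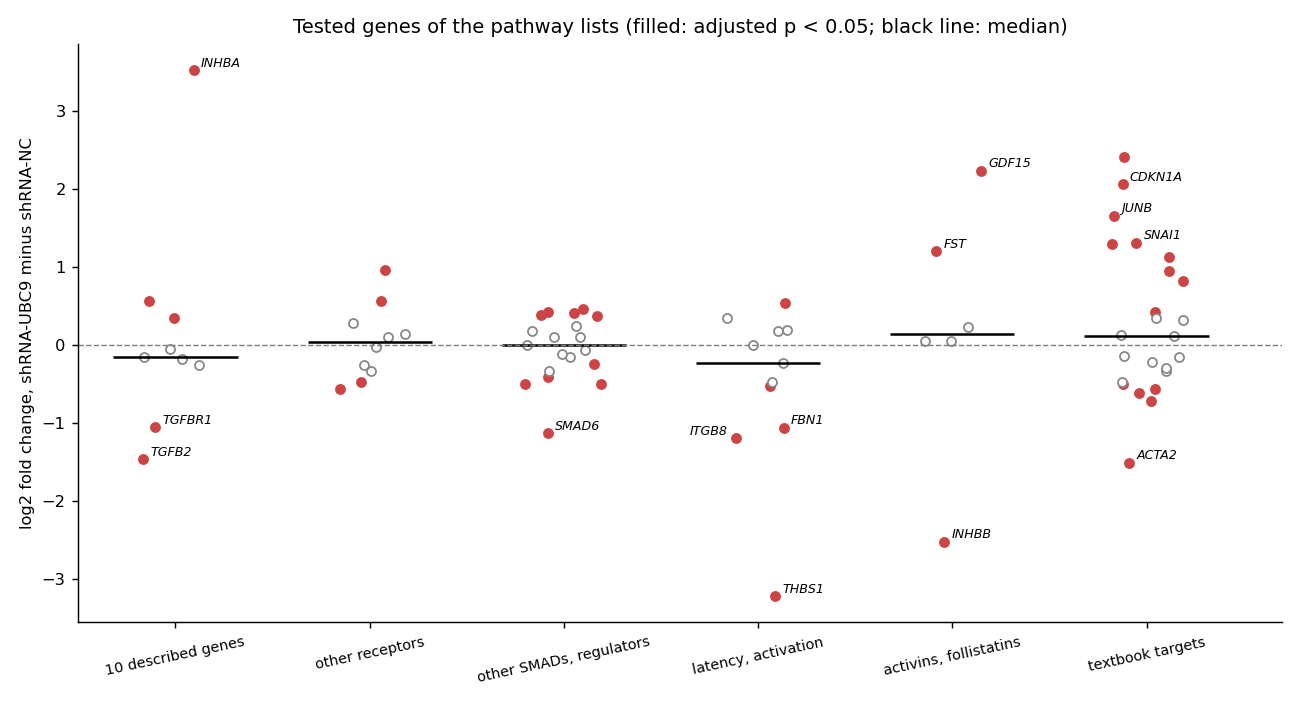
Log2 fold change of shRNA-UBC9 against shRNA-NC (vertical axis) for the tested genes among the 10 described here and in each of the 5 other lists (horizontal axis; sideways position within a list is arbitrary). Filled points have an adjusted p below 0.05, black lines are the medians of each list and the dashed line is the median of all 12428 genes. Names are given for the genes named in the text that lie beyond 1 or -1, such as INHBA at 3.53, CDKN1A at 2.07, INHBB at -2.52 and THBS1 at -3.22.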

How the data were processed

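Total RNA of T24 cells was extracted with Trizol, libraries were made from polyA RNA with the Illumina TruSeq kit, and the libraries were sequenced on an Illumina instrument. Trimmed reads were mapped by the authors to GRCh38 (hg38) in the CLC Biomedical Genomics Workbench under default settings, and they deposited RPKM values for 58174 genes in each of 6 samples. The annotation release, strand setting and treatment of reads with several places are not given in the sources used here. RPKM is not corrected for RNA composition.

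Genes with at least 0.5 RPKM in at least 3 of 6 samples were kept (12428 genes) and compared on log2(RPKM + 0.1) with limma 3.58.1 in R 4.3.3 (eBayes with an intensity trend), with Benjamini-Hochberg adjustment over all genes. Ratios and shares within the family were compared by two-sided exact permutation tests. Low RPKM values rise in steps worth 1 read, which gave 28219032 to 36058872 reads per sample and whole reads for 100% of the genes tested (tolerance 0.01 of a read). Whether these are reads or read pairs is not stated. They were used for depth and for a limma voom fit, an alternative chosen after seeing the data. No value above 0 was shared by any pair of samples.

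The members and lists were chosen with earlier results of these data known. Named were the 10 members, in each list up to 4 genes with the highest and 4 with the lowest log2 fold change among those past the test, and the 3 genes nearest to the member with the lowest adjusted p and to that with the largest change, which were both INHBA. A few genes that this rule names are not reported here. Gene positions and exons came from GENCODE release 44 and promoters from RefSeq. The alternatives were other pseudocounts, filters and scalings, a fit without the intensity trend, a replicate block, the omission of each sample, and an unadjusted threshold. The scripts were tested on simulated data. Tools were Python 3.11.15, numpy 2.4.6, pandas 2.3.3, scipy 1.17.1 and matplotlib 3.10.9.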

Additional observations from a re-analysis of the deposited data

How the results depend on the processing

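TGFBR1, TGFBR2 and INHBA kept their direction and stayed past the test in 16 of 16 alternatives each, with adjusted p-values of at most 0.00626, 0.0265 and 0.00369. The number of members past the test went from 5 to 3 with no filter and to 3 with the replicate block, in both cases through TGFB1 (adjusted p 0.0835 and 0.0736) and TGFB2 (0.0815 and 0.0605), and lay between 3 and 6 when each sample was left out. TGFB1 was also lost with median scaling (0.0815) and with no intensity trend (0.0654). In the voom fit on reads, chosen after seeing the data, TGFB1 and TGFB2 had adjusted p-values of 0.0421 and 0.0255. Members past the test with a log2 fold change beyond 1 in either direction numbered 3, and 1 to 3 with a sample left out, the 1 being INHBA. They numbered 2 with a pseudocount of 0.5 or 1, where TGFBR1 went to -0.94 and -0.83. With no filter or with the replicate block they also numbered 2, through the loss of TGFB2. Genes past the test numbered 4576, and 3034 to 4183 with a sample left out, the lowest without shRNA-NC replicate 3. Their split of 2339 higher and 2237 lower became 2046 and 2676 with quantile normalization and 2052 and 2576 with median scaling. Genes with a log2 fold change beyond 1 as well numbered 981, against 552 with a pseudocount of 1 and 552 with an RPKM of at least 1 in every sample, both of which by construction reduce changes in low genes or remove them. The 10 other SMAD genes and regulators past the test became 6 with the replicate block, which took all genes past the test from 4576 to 3374, and 5 to 9 with a sample left out. TGFBI turned to 0.19 without shRNA-NC replicate 3 and to 0.04 without shRNA-UBC9 replicate 1 (range -0.62 to 0.19), SMAD7 was 0.00 without shRNA-UBC9 replicate 2 (range -0.40 to 0.00), and the difference in the ratio of SMAD7 to SMAD2 and SMAD3 ranged from -0.0137, without shRNA-UBC9 replicate 1, to 0.0281. Where no construction is named, the cause was not tested. Samples with the same replicate number did not deviate together (correlations of -0.37, 0.07 and -0.17 for numbers 1 to 3), and shRNA-NC replicate 1 correlated best with shRNA-UBC9 replicate 3 (0.53), so the numbers are not taken as pairs. Of 30 other named genes past the test, 21 stayed past it in every alternative, and none of their 536 values, with those of the 4 genes named after seeing them, changed direction. The 30 were picked on the same samples, mostly by size of change among genes past the test. Their kept direction is therefore not separate evidence. TGFB3, with 49 to 82 reads a sample, was left out of the main fit by the filter on low values. With 3 samples a group the exact permutation test cannot give a p below 0.1.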

Other observations

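The 10 genes differed in how far single samples stood from their group. shRNA-NC replicate 2 was the lowest control for TGFB1, TGFB3, TGFBR2 and TGFBI and the highest for the other 6. shRNA-UBC9 replicate 1 was the lowest knockdown sample for TGFB1, TGFB3 and TGFBI and the highest for the other 7. The receptor genes stayed close within shRNA-NC, with SDs of 0.227 RPKM around 4.75 for TGFBR1 and 2.11 RPKM around 66.2 for TGFBR2, whereas TGFBI had an SD of 5.77 RPKM around 11.3. These are values of single samples, and which of them would recur in further samples was not tested.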
